A study of Mus musculus with 23 samples.

Results

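The pool of barcoded lentiviral Cre vectors held 4 dual vectors that carry a guide against Lkb1 and, as their other guide, the non-targeting guide NT. They are 4 of 26 named vectors and 4 of 24 that target a gene, and they were taken by vector name. In each, 1 of 2 Lkb1 guides is driven either by the mouse U6 promoter (mU6) or by the human U6 promoter (hU6), so that every guide occurs at both promoters. The 4 vectors share guides in pairs and are therefore not independent reagents. They are called here mU6 guide 1, mU6 guide 2, hU6 guide 1 and hU6 guide 2.

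Tumours grew for 4 months in the lungs of mixed BL6/129 mice, and barcodes were sequenced from genomic DNA of the tumour-bearing lung. All mice carried an oncogenic allele and R26LSL-Tomato, a fluorescent reporter, both of which Cre switches on in the infected cell. KT mice had these alleles only. KT_Cas9 mice had H11LSL-Cas9 in addition, and KTL_Cas9 mice had H11LSL-Cas9 and Lkb1flox/flox, in which Cre itself deletes Lkb1. Of 5 labelled KT mice 4 were used, of 8 labelled KTL_Cas9 mice 7, and all 10 of the KT_Cas9 genotype. They name no virus dose and no batch, so genotype and any difference in dose or handling between the groups cannot be told apart.

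Lkb1 is the common name of Stk11 (mouse gene ID 20869), a serine/threonine kinase that phosphorylates and activates the AMPK-related kinases, among them the salt-inducible kinases (Siks). It is a tumour suppressor that is often lost in human lung adenocarcinoma, and its loss speeds the growth of lung tumours in mouse models. In tumour barcode sequencing (Tuba-seq) each infected cell receives a vector identifier and a random barcode that its descendants inherit, so the reads of 1 barcode measure the size of 1 clone. KT mice lack Cas9, hence no guide can cut there, and they give the background of each vector.

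The identifier of a vector is an 8-base sequence, and it alone assigns a tumour to its guide and promoter. The identifiers of the 4 vectors are shown here in capitals over their whole length, with those of the dual inert vector (Neo1 with NT) and the triple inert vector (Neo1, NT and Neo2), whose pooled tumours are the reference in each mouse.
mU6 guide 1: CTAGGAGT
mU6 guide 2: GCGACATT
hU6 guide 1: ATAACGCC
hU6 guide 2: AGCCATGA
inert dual: AATCCGGT
inert triple: AATTGCCG

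The clonal barcode that follows has 30 bases, with fixed base pairs between blocks of random bases, and all 79396 tumours of the 4 vectors carried these fixed bases (100%). The barcodes of the largest clone of each vector in KT_Cas9 mice show what 1 tumour is in these data, with the random bases in capitals and the fixed bases in lower case.
mU6 guide 1: gcAGGGAtaGAAAAgcGCAGAtaAAAGAgc
mU6 guide 2: gcAACAAtaGAAAAgcATAAAtaATACAgc
hU6 guide 1: gcAGGAGtaGGGGAgcATTATtaCATGAgc
hU6 guide 2: gcTCTGAtaATGTTgcCAAATtaTTTTCgc
The mU6 guide 1 clone grew in KT_Cas9 replicate 3 and had 75651 reads, an estimated 4756130 cells. The mU6 guide 2 clone in replicate 9 reached 3150360 cells, the hU6 guide 1 clone in replicate 10 reached 2931655 cells, and the hU6 guide 2 clone in replicate 1 reached 4263755 cells. These 4 barcodes were seen with the same vector in at most 1 other mouse, where they had at most 25 reads. The largest inert clone in KT_Cas9 mice was larger still, at 5025140 cells. Within a mouse, the largest clone of the vector exceeded the largest inert clone in 8, 7, 7 and 8 of 10 KT_Cas9 mice, in the order listed.

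Barcodes with 500 or more estimated cells were counted as tumours. That floor stood for 3.13 to 7.81 reads in mice of the KT group, 3.76 to 12.01 among KT_Cas9 and 6.16 to 51.7 among KTL_Cas9 mice. Small tumours thus rest on few reads, and their sizes move in steps of 1 read. Each KT mouse had 936090 to 1505173 reads, each KT_Cas9 mouse 92713 to 4516887 and each KTL_Cas9 mouse 2181575 to 8547188. The 4 vectors together had 5362 to 13594 tumours per KT mouse, 524 to 12132 per KT_Cas9 mouse and 187 to 1035 per KTL_Cas9 mouse. The inert reference held between 1496 and 3693 tumours in a KT mouse, between 125 and 4370 in a KT_Cas9 mouse and between 61 and 321 in a KTL_Cas9 mouse. KT_Cas9 replicates 2 and 5 stood apart with the fewest reads of their group, 92713 and 218542, and the fewest inert tumours, 125 and 129. In reads per cell they were not the lowest: 500 cells took 5.62 reads in replicate 2 and 12.01 in replicate 5, the most of the group. Of the tumours of the 4 vectors, 7.68% in KT, 8.79% in KT_Cas9 and 10.8% in KTL_Cas9 mice had a barcode that also occurred with that vector in another mouse.

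Setting KT_Cas9 beside KT mice addresses what cutting at Lkb1 does to tumours whose Lkb1 alleles are intact at the start. Relative to inert tumours of the same mouse, tumours with each of the 4 vectors had a larger 95th percentile of size in the presence of Cas9, by 2.90-fold to 8.09-fold, and both guide 1 vectors exceeded both guide 2 vectors. Size was measured as the ratio of the vector's 95th percentile of estimated cells to that of the inert tumours in the same mouse, on the log2 scale. The inert reference itself differed between the groups without overlap: its 95th percentile was 7633 to 13645 cells in KT mice (median 8708) and 1923 to 7386 cells in KT_Cas9 mice (median 4277). The part of that difference in the ratios was not tested, and in cells all 4 vectors overlapped between the groups.

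With mU6 guide 1 the ratio was 1.07, 1.22, 1.02 and 1.05 in KT replicates 1, 2, 3 and 5. In the 10 KT_Cas9 mice its lowest value was 2.05, its median 12.1 and its highest 17.7. Every KT_Cas9 mouse lay above every KT mouse, and the mean log2 ratios of 2.98 ± 1.22 (SD, n = 10) and 0.12 ± 0.11 (SD, n = 4) differed by 2.86 ± 0.39 SE, or 7.24-fold. In cells, the 95th percentile of this vector in KT_Cas9 mice ran from 5514 to 122407 with a median of 47117, against 8193 to 13949 in KT mice. KT_Cas9 replicates 2 and 5 (6945 and 5514 cells) lay below every KT mouse.

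With hU6 guide 1 the ratio was 0.673, 0.914, 1.06 and 0.999 in the KT mice in the same order, so KT replicate 1 was the low mouse. In KT_Cas9 mice it ran from 1.33 through a median of 9.001 to 25.1, which was the widest range of the 4 vectors. The groups did not overlap, and the log2 means of 2.86 ± 1.35 (SD, n = 10) and -0.16 ± 0.29 (SD, n = 4) differed by 3.02 ± 0.45 SE, or 8.09-fold. This vector had the fewest tumours of the 4, between 50 and 1488 per KT_Cas9 mouse, so its upper percentiles rest on the fewest clones. In cells it ran from 3995 to 173180 in KT_Cas9 mice and from 5133 to 14404 in KT mice.

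With mU6 guide 2 the ratio was 1.03, 1.001, 0.994 and 0.969 in the KT mice. In KT_Cas9 mice it ran from 1.19 through 4.48 to 6.11, with no overlap between the groups. The log2 means were 1.73 ± 0.83 (SD, n = 10) and -0.00 ± 0.04 (SD, n = 4), a difference of 1.74 ± 0.26 SE or 3.33-fold. In cells the 95th percentile was 3406 to 42160 in KT_Cas9 and 7895 to 13557 in KT mice.

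With hU6 guide 2 the KT mice lay at 0.998, 1.02, 0.937 and 0.894. The KT_Cas9 mice ran from 1.10 through 3.03 to 6.90, again all above the KT mice. The log2 means of 1.48 ± 0.75 (SD, n = 10) and -0.06 ± 0.09 (SD, n = 4) differed by 1.54 ± 0.24 SE, or 2.90-fold, the smallest of the 4 differences. In cells the 95th percentile was 3329 to 27141 in KT_Cas9 and 7617 to 12782 in KT mice.

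In a two-sided exact permutation of the mice with Benjamini-Hochberg adjustment over the 24 targeting vectors, all 4 vectors passed at adjusted p = 0.00599 each, with 10 of 10 KT_Cas9 mice above the inert level for each vector. Their unadjusted exact permutation p of 0.000999 is the smallest that 1001 splits of these mice can give. Of all 24 vectors 58.3% passed in this comparison, all of them higher, and for 41.7% the groups did not overlap. The median log2 difference of the 4 vectors was 2.30, beside 1.54 over all 24. The hU6 guide 1 and mU6 guide 1 vectors ranked 1 and 2 of 24 by the size of the difference, mU6 guide 2 ranked 8 and hU6 guide 2 ranked 12.

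The 10 KT_Cas9 mice were not alike. Replicate 10 had the lowest ratio with each of the 4 vectors, with log2 values of 1.04 for mU6 guide 1, 0.25 for mU6 guide 2, 0.41 for hU6 guide 1 and 0.14 for hU6 guide 2. It was also the mouse with most tumours, 12132 of the 4 vectors and 4370 inert, and the one in which 500 cells took fewest reads of the group (3.76). The second lowest mouse with each vector was replicate 5, where 500 cells took most reads of the group (12.01). Replicate 3 had the highest ratio with mU6 guide 1, mU6 guide 2 and hU6 guide 1, and replicate 7 with hU6 guide 2. The part of reads per cell and tumour number in this spread was not tested.

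With tumours counted from 500 cells, the increase lay in the largest tumours and was small at the middle of the distribution. In KT_Cas9 mice the median tumour of a vector was 1.12-fold (mU6 guide 1), 1.08-fold (mU6 guide 2), 1.16-fold (hU6 guide 1) and 1.09-fold (hU6 guide 2) the inert median, as geometric means over mice. The median was above that of the inert tumours in 7, 6, 7 and 6 of 10 mice, and equal to it in the others, except for mU6 guide 2 in replicate 1, where it was lower (0.917-fold). At the 80th percentile the same ratios were 1.53, 1.35, 1.72 and 1.29, and at the 90th they were 3.07, 1.86, 3.14 and 1.74. At the 99th percentile they reached 11.4, 7.12, 14.6 and 5.66, with 1.07, 1.13, 1.10 and 1.03 in KT mice.

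Tested at 7 percentiles over 24 vectors, 4.76% of 168 comparisons of KT_Cas9 with KT mice passed by exact permutation, all of them higher. Of the 4 vectors, 0 passed at the 50th, 60th, 70th and 80th percentile, 2 at the 90th (mU6 guide 2 and hU6 guide 2, adjusted p = 0.021 each), 4 at the 95th and 1 at the 99th (hU6 guide 1, 3.73 ± 0.51 SE, adjusted p = 0.021). At the unadjusted exact permutation p, hU6 guide 1 (0.041) and hU6 guide 2 (0.046) were below 0.05 at the median. The guide 1 vectors at the 90th percentile differed by 1.48 ± 0.25 SE at mU6 and 1.78 ± 0.36 SE at hU6 (exact permutation adjusted p = 0.0516 for both). With 1 mouse left out the count was 0 of 28 without any 1 of the KT mice or without KT_Cas9 replicate 4 or 8, and 12 without KT_Cas9 replicate 5. Fewer mice raise the smallest possible p, to 0.0035 without a KT mouse and 0.0014 without a KT_Cas9 mouse, so a lost call over 168 comparisons need not mean a smaller difference. The 95th percentile differences stayed between 2.73 and 3.07 for mU6 guide 1, 1.64 and 1.90 for mU6 guide 2, 2.82 and 3.29 for hU6 guide 1 and 1.39 and 1.69 for hU6 guide 2.

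The profile also depended on the smallest tumour counted. With a floor of 1500 cells, which 8 KT_Cas9 mice met with 20 inert tumours, all 28 comparisons of the 4 vectors passed, beside 42.3% of the 168 over all vectors. The differences at the median were then 0.75 for mU6 guide 1, 0.45 for mU6 guide 2, 0.80 for hU6 guide 1 and 0.37 for hU6 guide 2. With a floor of 200 cells the 95th percentile differences fell to between 0.61 and 1.33, and 0 of 4 vectors passed, as did 0 of all 24 (exact permutation adjusted p from 0.0799 to 0.0959).

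Tumours of at least 10000 cells show the tail as a share. In KT_Cas9 mice they made up a median of 7.90% of mU6 guide 1 tumours, 5.65% of mU6 guide 2 tumours, 8.75% of hU6 guide 1 tumours and 5.01% of hU6 guide 2 tumours, against 1.73% of inert tumours. The share exceeded that of the inert tumours of the same mouse in 10, 9, 10 and 10 of 10 mice. In KT mice the medians were 4.89%, 4.16%, 3.86% and 4.02%, beside 4.40% of inert tumours, and the vector lay above the inert tumours in 3, 1, 1 and 0 of 4 mice. In KT_Cas9 mice 19.3% of the tumours of the 4 vectors with 10000 or more cells had a barcode seen in another mouse, beside 8.02% of the smaller ones, and in KT mice these shares were 11.2% and 7.48%. With each shared barcode kept only in the mouse where it had most reads, the 95th percentile differences were 2.89 and 1.73 for guide 1 and 2 at mU6 and 3.04 and 1.56 at hU6. With shared barcodes left out altogether they were 2.22, 1.43, 2.56 and 1.34, and all 4 vectors passed (exact permutation adjusted p from 0.024 to 0.0308), beside 62.5% of the 24.

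The guides differed from each other in KT_Cas9 mice, whereas a difference between the promoters was not detected. Guide 1 gave larger tumours than guide 2 at mU6 in 10 of 10 mice, with log2 differences of the 95th percentile from 0.09 through a median of 1.33 to 2.80 and a mean of 1.24 ± 0.85 (SD, n = 10). At hU6 the same contrast was positive in 10 of 10 mice as well, from 0.17 through 1.55 to 2.85, with a mean of 1.38 ± 1.06 (SD, n = 10). Both passed an exact sign-flip permutation within mice at adjusted p = 0.00651 over 10 contrasts, of which 40% passed. Both kept this on the 90th percentile (0.72 and 0.85) and lost it on the median (0.05 and 0.09) and with floors of 1500 cells (0.91 and 1.34) and 5000 cells (0.75 and 0.71), where 8 and 6 mice were left. Fewer mice raise the smallest possible sign-flip p, so a call lost at these floors does not by itself mean a smaller contrast. With a floor of 200 cells the contrast at mU6 was 0.51 and missed the threshold (exact permutation adjusted p = 0.0547), and that at hU6 was 0.64 and passed (0.013).

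For hU6 minus mU6, guide 1 ranged from -1.17 to 0.76 between mice with a mean of -0.12 ± 0.21 SE, above 0 in 4 of 10 mice (exact sign-flip permutation adjusted p = 0.653). Guide 2 ranged from -1.03 to 0.60 with a mean of -0.25 ± 0.15 SE, above 0 in 3 of 10 mice (adjusted p = 0.176 in the same exact permutation). The difference of the guide contrast between the promoters was 0.14 ± 0.30 SE (exact permutation adjusted p = 0.654). The promoter contrast of guide 1 changed its sign, to 0.59, when tumours were matched by rank to the number each vector gave in KT mice (exact permutation adjusted p = 0.0326), a measure that counts a change in tumour number into size.

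In KT mice the guide contrast was 0.12 ± 0.11 (SD, n = 4) at mU6 and -0.10 ± 0.35 (SD, n = 4) at hU6. The change of the guide contrast from KT to KT_Cas9 mice was 1.12 ± 0.27 SE at mU6 and 1.48 ± 0.38 SE at hU6, and neither passed by exact permutation over 20 contrasts (adjusted p = 0.0959 and 0.0799). Of the 20 contrasts 10% passed in this comparison. The contrast at hU6 passed on the log-normal mean size (0.80, exact permutation adjusted p = 0.02) and with tumours of at least 10 reads (1.59, adjusted p = 0.0466), and that at mU6 did not pass in any setting tried.

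The same guides at the same promoters also occurred in triple vectors, which carry a further promoter (bU6) and guide Neo1. In KT_Cas9 mice tumours with the dual vector were larger than those with the triple vector at mU6 and not detectably so at hU6. For the inert vectors, the log2 difference triple minus dual was -0.25 ± 0.36 (SD, n = 10) in KT_Cas9 mice. It was 0.05 ± 0.20 (SD, n = 4) in KT and 0.07 ± 0.74 (SD, n = 7) in KTL_Cas9 mice. Its part in the Lkb1 contrasts was not tested. In KT mice the dual minus triple difference was already 0.25 ± 0.08 SE for mU6 guide 1, above 0 in 4 of 4 mice, and -0.36 ± 0.07 SE for hU6 guide 2, above 0 in 0 of 4. In KT_Cas9 mice the difference for mU6 guide 1 ranged from -0.38 through 1.08 to 3.70 and was above 0 in 9 of 10 mice (mean 1.57 ± 0.48 SE, exact sign-flip permutation adjusted p = 0.0146). For guide 2 it ranged from 0.31 through 1.71 to 2.64 and was above 0 in 10 of 10 mice (mean 1.49 ± 0.25 SE, exact sign-flip permutation adjusted p = 0.00651).

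The triple mU6 guide 2 vector itself lay at a log2 ratio of 0.24 ± 0.33 (SD, n = 10) in KT_Cas9 and 0.17 ± 0.32 (SD, n = 4) in KT mice, a difference of 0.07 ± 0.19 SE. At hU6 the dual minus triple difference was 0.37 ± 0.18 SE for guide 1 (7 of 10 mice above 0, exact permutation adjusted p = 0.0893). For guide 2 it was -0.54 ± 0.23 SE, with 1 of 10 mice above 0 (exact permutation adjusted p = 0.0703). It passed without KT_Cas9 replicate 7 (-0.70, exact permutation adjusted p = 0.00977), but its change from KT mice was only -0.18 ± 0.24 SE (exact permutation adjusted p = 0.74). Against KT mice the dual minus triple contrast of mU6 guide 2 rose by 1.66 ± 0.30 SE (exact permutation adjusted p = 0.02), while the changes of 1.32 ± 0.49 SE for mU6 guide 1 and 0.49 ± 0.23 SE for hU6 guide 1 did not pass (adjusted p = 0.303 and 0.315 in the same exact permutation). Without KT replicate 1, 2 or 3, or KT_Cas9 replicate 3, 7, 8 or 9, the contrast of mU6 guide 2 missed the threshold (exact permutation, with an adjusted p of up to 0.0699), with values over all single omissions of 1.51 to 1.79.

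The 4 dual Sik1/Sik3 vectors cut a pair of the kinases downstream of Lkb1. As means of 4 vectors, they and the dual Lkb1 vectors were not separated by tumour size in KT_Cas9 mice. The mean of the 4 Lkb1 vectors minus the mean of the 4 Sik1/Sik3 vectors ranged from -0.43 through 0.44 to 1.49, was above 0 in 7 of 10 mice and averaged 0.46 ± 0.21 SE. It did not pass the exact sign-flip permutation (adjusted p = 0.0893). This mean joins 2 unlike guides. The mean log2 ratios of the dual Sik1/Sik3 vectors in KT_Cas9 mice were 1.75 to 1.87. At mU6 and hU6 they were 2.98 and 2.86 for Lkb1 guide 1, and 1.73 and 1.48 for guide 2. Single guides were not tested against the Sik1/Sik3 vectors.

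Tumour number was expressed per inert tumour of the same mouse and compared only between groups, since the level of a vector depends on how much of each vector the virus pool held. KT mice were tight: per 100 inert tumours there were 122 to 136 mU6 guide 1 tumours, 73.1 to 77.0 mU6 guide 2 tumours, 36.8 to 38.0 hU6 guide 1 tumours and 111 to 119 hU6 guide 2 tumours. In KT_Cas9 mice the lowest, median and highest numbers were 84.9, 98.3 and 222 for mU6 guide 1 and 57.2, 65.4 and 138 for mU6 guide 2. For hU6 guide 1 they were 28.01, 32.9 and 68, and for hU6 guide 2 they were 87.6, 102 and 174. For each vector 8 of 10 KT_Cas9 mice lay below all KT mice. The other 2 were replicates 2 and 5, which had the fewest reads, and the highest value was that of replicate 2.

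The log2 differences in number between KT_Cas9 and KT mice were -0.23 ± 0.14 SE for mU6 guide 1, -0.08 ± 0.12 SE for mU6 guide 2, -0.12 ± 0.12 SE for hU6 guide 1 and -0.12 ± 0.09 SE for hU6 guide 2. By exact permutation 0 of the 4 passed, 0 had an unadjusted p under 0.05 and 0 passed in limma, and 0% of all 24 vectors passed. Without KT_Cas9 replicates 2 and 5, a choice made after their low read numbers were seen, the differences were -0.43, -0.24, -0.27 and -0.24. These replicates were also the only KT_Cas9 mice not below all KT mice, so leaving them out itself ended the overlap of the groups. All 4 then passed (exact permutation adjusted p from 0.0194 to 0.0323), beside 25% of the 24 vectors, all lower. Because of that choice of mice, these calls add no support for a lower number. With a floor of 5000 cells the sign turned, with differences of 0.73, 0.62, 1.14 and 0.59 in the same vector order over 6 KT_Cas9 mice, of which 0 passed (exact permutation adjusted p from 0.0571 to 0.0762).

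The dual minus triple contrast in number at mU6 guide 1 was lower in KT_Cas9 than in KT mice by 0.36 on the log2 scale (1.78 ± 0.17 against 2.14 ± 0.03, SD, n = 10 and 4, exact permutation adjusted p = 0.02). Without any 1 of the mice named above for the size contrast of mU6 guide 2 it missed the threshold too (exact permutation adjusted p of up to 0.0699), with values over all single omissions of -0.39 to -0.34. The limit set by the smallest possible p without a KT mouse holds here as well. The number contrast of the dual Lkb1 with the dual Sik1/Sik3 vectors was -0.32 ± 0.07 SE (exact permutation adjusted p = 0.0899) and passed without KT_Cas9 replicate 2 (-0.37, adjusted p = 0.028).

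Total reads per vector, which join number and size, were compared by edgeR's quasi-likelihood test with the reads of the inert tumours as library size. They were higher in KT_Cas9 than in KT mice by 5.71-fold for mU6 guide 1 (edgeR adjusted p = 0.000729), 3.70-fold for mU6 guide 2 (0.00387), 6.49-fold for hU6 guide 1 (0.000469) and 3.61-fold for hU6 guide 2 (0.00501). Of the 24 vectors 58.3% passed. Single large inert clones enter this library size. In KT_Cas9 replicate 4 the largest inert clone had 5025140 cells, where the inert 95th percentile was 5164 cells. Over the KT_Cas9 mice the median of the largest inert clone was 183913 cells, and no KT mouse exceeded 390350 cells. The share of inert reads held by such clones was not computed, and their part in the read differences was not tested. When libraries were scaled by TMM over all 26 vectors, a scaling that takes most vectors as unchanged, the log2 differences were 1.12, 0.59, 1.30 and 0.46, and the guide 2 vectors no longer passed (edgeR adjusted p = 0.117 and 0.148). Of the 24 vectors 7 were then higher and 3 lower, beside 14 that passed with the inert scaling.

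As shares of all tumours and cells of a mouse, the 4 vectors held 26.1% to 27.1% of tumours and 25.1% to 26.3% of cells in KT mice. In KT_Cas9 mice they held 19.3% to 29.5% of tumours but 27.1% to 46.1% of cells (median 33.4%), and in KTL_Cas9 mice 21.3% to 27.0% of tumours and 12.5% to 21.2% of cells. The ranges of the share of cells did not overlap between any of the 3 groups. Such a share also depends on the cells of the other vectors and of the inert tumours. The same ranges were not computed for other vectors. Single clones weighed heavily in KT_Cas9 mice, where the largest clone held up to 52.7% of the cells of mU6 guide 1, 62.8% of mU6 guide 2, 36.9% of hU6 guide 1 and 45.1% of hU6 guide 2. In KTL_Cas9 mice it held up to 17.3%, 18.4%, 44.2% and 24.9% in the same order, and in KT mice at most 3.46%, 5.52%, 11.3% and 3.81%.

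KTL_Cas9 mice were set beside KT_Cas9 mice to ask whether cutting at Lkb1 still changes tumours when Cre deletes Lkb1 in every tumour, inert ones included. No size advantage over inert tumours common to the 4 vectors was seen at the 95th percentile in KTL_Cas9 mice, where the inert tumours themselves were large. The vector lay above the inert tumours in 6 of 7 mice for mU6 guide 1, 4 for mU6 guide 2, 2 for hU6 guide 1 and 3 for hU6 guide 2. A vector was not tested against inert tumours within this group. The 95th percentile of inert tumours ran from 87593 to 236996 cells in KTL_Cas9 mice with a median of 167749, against a median of 4277 in KT_Cas9 mice. The share of tumours of at least 10000 cells was nevertheless above that of the inert tumours in 7 of 7 KTL_Cas9 mice for mU6 guide 1 (median 46.1%, inert 40%), and in 4, 5 and 1 of 7 for mU6 guide 2 (40%), hU6 guide 1 (45.5%) and hU6 guide 2 (33.1%).

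With mU6 guide 1 the ratio to inert tumours in the 7 KTL_Cas9 mice was 0.899 at the lowest, 1.14 at the median and 1.52 at the highest. All these mice lay below all KT_Cas9 mice, and the log2 mean of 0.21 ± 0.24 (SD, n = 7) was lower by 2.77 ± 0.40 SE, or 6.81-fold. With hU6 guide 1 the ratio ran from 0.427 through 0.810 to 1.12, again without overlap, with a log2 mean of -0.33 ± 0.48 (SD, n = 7). The difference of -3.19 ± 0.46 SE, or 9.12-fold lower, was the largest of all 24 vectors.

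With mU6 guide 2 the ratio ran from 0.472 through 1.11 to 1.44, and the ranges of the groups overlapped. Its log2 mean of -0.06 ± 0.58 (SD, n = 7) was lower by 1.79 ± 0.34 SE. With hU6 guide 2 the ratio ran from 0.648 through 0.859 to 1.67, also overlapping, with a log2 mean of -0.06 ± 0.45 (SD, n = 7) and a difference of -1.54 ± 0.29 SE. All 4 vectors passed the exact permutation test (adjusted p = 0.00222 each), beside 41.7% of the 24 vectors, all lower, and 8.33% without overlap.

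Over the distribution, the 4 vectors were lower in KTL_Cas9 than in KT_Cas9 mice at the 90th, 95th and 99th percentile, 4 of 4 at each, and mixed below. At the median mU6 guide 1 was higher by 0.69 ± 0.18 SE (exact permutation adjusted p = 0.00332) and hU6 guide 2 lower by 0.39 on the log2 scale (SE 0.18, exact permutation adjusted p = 0.0266), while mU6 guide 2 (0.19) and hU6 guide 1 (0.23) did not pass. Of the 28 comparisons 18 passed, 2 of them higher and 16 lower, beside 38.1% of the 168 over all vectors (10.7% higher and 27.4% lower). At the 99th percentile the differences ran from -2.60 ± 0.55 SE (hU6 guide 2) to -4.69 ± 0.61 SE (hU6 guide 1). That percentile rests on the few largest clones of a mouse. Each KTL_Cas9 mouse had 22 to 158 hU6 guide 1 tumours, 39 to 255 of mU6 guide 2, 45 to 325 of hU6 guide 2 and 81 to 384 of mU6 guide 1. The largest difference thus belonged to the vector with fewest clones. The median of mU6 guide 1 tumours was above that of inert tumours in 7 of 7 KTL_Cas9 mice, by 1.16-fold to 3.17-fold, but its difference from KT_Cas9 mice was -0.38 with a floor of 1500 cells (exact permutation adjusted p = 0.202).

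Tumour number relative to inert tumours differed between KTL_Cas9 and KT_Cas9 mice by 0.34 ± 0.20 SE for mU6 guide 1, 0.13 ± 0.17 SE for mU6 guide 2, 0.44 ± 0.18 SE for hU6 guide 1 and 0.04 ± 0.19 SE for hU6 guide 2. By exact permutation 0 of 4 passed, beside 8.33% of the 24 vectors, and 1 had an unadjusted p under 0.05 (hU6 guide 1, 0.0284). Unadjusted, 1 vector each was also under 0.05 among the single Sik, other AMPK-related and triple Lkb1 vectors. In limma 0 of 4 passed, beside 1 of 24. Without KT_Cas9 replicate 2, mU6 guide 1 (0.45, exact permutation adjusted p = 0.0422) and hU6 guide 1 (0.55, adjusted p = 0.00923) passed, beside 41.7% of the 24 vectors, and without KTL_Cas9 replicate 8 hU6 guide 1 did (0.55, exact permutation adjusted p = 0.0444), beside 20.8%.

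Contrasts between vectors changed with the genotype too, 25% of 20 passing between KTL_Cas9 and KT_Cas9 mice. Guide 1 minus guide 2 at hU6 was -0.27 ± 0.57 (SD, n = 7) in KTL_Cas9 mice, a change of -1.65 ± 0.40 SE from KT_Cas9 mice (exact permutation adjusted p = 0.0117). At mU6 the contrast was 0.27 ± 0.61 (SD, n = 7), a change of -0.98 ± 0.35 SE that did not pass (exact permutation adjusted p = 0.068). It passed without KT_Cas9 replicate 2 or 6 or KTL_Cas9 replicate 7 (exact permutation adjusted p from 0.0297 to 0.0323), and with tumours of at least 10 reads (-1.25, adjusted p = 0.0387). On the median tumour size it passed with the opposite sign (0.50, exact permutation adjusted p = 0.0195). The number contrast of the guides at hU6 was higher by 0.40 ± 0.11 SE in KTL_Cas9 mice (exact permutation adjusted p = 0.0117), and the size contrast dual minus triple at mU6 guide 2 changed by -1.60 ± 0.47 SE (adjusted p = 0.0117 by exact permutation). Without KTL_Cas9 replicate 4 the number contrasts guide 1 minus guide 2 at mU6 (0.28) and dual minus triple at mU6 guide 1 (0.36) also passed (exact permutation adjusted p = 0.0407 and 0.0262).

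The contrast with the dual Sik1/Sik3 vectors turned. In KTL_Cas9 mice the dual Lkb1 vectors lay below the dual Sik1/Sik3 vectors in 7 of 7 mice, by log2 values from -2.78 through -1.45 to -0.51, and above them in 7 of 10 KT_Cas9 mice. The change of -1.95 ± 0.37 SE passed (exact permutation adjusted p = 0.00103), as did the change of the same contrast in number, 0.39 ± 0.10 SE (exact permutation adjusted p = 0.0117). Within KTL_Cas9 mice alone 0 of 10 size contrasts passed. There the smallest sign-flip p that 7 mice allow is 0.0156, and this contrast and hU6 minus mU6 for guide 1 (-0.54 ± 0.19 SE, 0 of 7 mice above 0) reached it, with exact permutation adjusted p = 0.0781 for both.

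Total reads relative to inert reads were lower in KTL_Cas9 than in KT_Cas9 mice by 4.90-fold for mU6 guide 1 (edgeR adjusted p = 0.000107), 3.63-fold for mU6 guide 2 (0.000569), 5.32-fold for hU6 guide 1 (8.72e-05) and 3.96-fold for hU6 guide 2 (0.000472). Of the 24 vectors 37.5% passed in edgeR. Here too single inert clones enter the library size, with a largest inert clone of 3630380 cells in KTL_Cas9 replicate 4. The inert 95th percentile of that mouse was 180075 cells. The part of such clones in these differences was not tested.

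Set against KT mice, where guides cannot cut, KTL_Cas9 mice showed no detectable difference of the 4 vectors at the 95th percentile. The log2 differences of the 95th percentile ratio were 0.09 ± 0.11 SE for mU6 guide 1, -0.06 ± 0.22 SE for mU6 guide 2, -0.17 ± 0.23 SE for hU6 guide 1 and -0.01 ± 0.17 SE for hU6 guide 2. By exact permutation 0 of 4 passed (adjusted p from 0.8 to 0.979), beside 12.5% of the 24 vectors. In the same test 0 of the 4 had an unadjusted p under 0.05, beside 4 of 5 vectors against several Sik genes. In limma 0 of the 4 passed, beside 4 of all 24. All 4 ranges overlapped, beside 16.7% of the 24 vectors whose groups did not. Number did not pass either, with differences of 0.10 ± 0.15 SE, 0.05 ± 0.13 SE, 0.32 ± 0.14 SE and -0.08 ± 0.17 SE in the same order. By exact permutation 0 of 4 passed, beside 0% of 24. Before adjustment 0 of 4 were under 0.05, beside 3 of 5 vectors against other AMPK-related kinases and 2 of 6 triple Lkb1 vectors. In limma 0 of 4 passed, beside 1 of 24. Over the percentiles 0 of 28 passed, beside 0% of 168. Below 0.05 before adjustment by exact permutation were mU6 guide 1 at the 50th (0.85 ± 0.18 SE, 1.81-fold, p = 0.00909), 60th (0.71 ± 0.11 SE, p = 0.00606) and 70th percentile (0.65 ± 0.21 SE, p = 0.0364), and hU6 guide 2 at the 90th (-0.50 ± 0.09 SE, p = 0.00606). Their adjusted p ran from 0.145 to 0.305 in the same exact permutation. The smallest exact permutation p of this design is 0.00303. KT_Cas9 mice serve in the first and the second of these genotype comparisons and KT mice in the first and the third, so the comparisons are not independent.

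Among the other 20 targeting vectors, those whose log2 size ratios over the 21 mice were closest to the mean of the 4 were all triple vectors with an Lkb1 guide. The root mean square difference was 0.50 for triple hU6 guide 2, 0.70 for triple hU6 guide 1 and 0.88 for triple bU6 guide 2. By class, 5 of 6 triple Lkb1 vectors, 5 of 5 vectors against several Sik genes, 0 of 4 against a single Sik gene and 0 of 5 against other AMPK-related kinases passed in KT_Cas9 against KT mice. In KTL_Cas9 against KT_Cas9 mice 5 of 6 triple Lkb1 vectors were lower, beside 0 of 5 vectors against several Sik genes, 0 of 4 against a single Sik gene and 1 of 5 against other AMPK-related kinases.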

How the data were processed

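The members and lists were chosen with earlier results of these data known. The deposited table gives a read count per mouse, vector and barcode, the authors' ratio of cells per read, and estimated cells, a signal that equals count times ratio. That ratio equals 500000 divided by a read number listed for the mouse, presumed to come from a cell-number standard. How reads were processed is not given in the sources used here. Mice carry no replicate number in the labels and were numbered in record order, and p-values measure the spread between mice. The name of the oncogenic allele that all groups share is not reported here.

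Every line of KT replicate 2 stood 2 times, and 105870 of 1019578 lines were dropped as repeats. Lines without a vector name (1.76% of reads) were left out. Without any lines, KT replicate 4 was not analysed here, and KTL_Cas9 replicate 1, with 17 tumours and 0 inert, was left out. Required were 20 inert tumours per mouse, 5 tumours per vector and mouse, and 4 mice per group (3 when 1 was left out).

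Tests were two-sided exact permutations of mice (1001, 19448 and 330 splits), or sign flips within mice, with Benjamini-Hochberg adjustment at 0.05. edgeR 4.0.16, limma 3.58.1 and DESeq2 1.42.0 in R 4.3.3 were used for total reads (edgeR, with DESeq2 as the alternative) and, as an alternative, for log2 ratios (limma). Scripts were tested on simulated data. By the naming rule, the 4 vectors are named throughout, their triple counterparts in contrasts, the 3 most alike vectors once, and others by class. Read numbers come from PCR without molecular identifiers and are no count of molecules. Alternatives were the size measure, the inert vector, the floor, read and tumour minimums, shared barcodes, tools and single mice.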

Additional observations from a re-analysis of the deposited data

Results flagged for a closer look

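KT_Cas9 replicate 2 lay far from the other KT_Cas9 mice in tumour number with 3 of the 4 vectors, at log2 ratios to inert tumours of 0.47 for mU6 guide 2, -0.56 for hU6 guide 1 and 0.80 for hU6 guide 2. It had the fewest reads of its group, 92713, and 125 inert tumours. Of 24 groups of values checked in this way 3 held such a mouse, and chance gives about 1 in 20. All 3 are this mouse and share its 125 inert tumours, so they are not independent and cannot be set against that rate.

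The size of each of the 4 vectors differed between KTL_Cas9 and KT_Cas9 mice, by -2.77 for mU6 guide 1, -1.79 for mU6 guide 2, -3.19 for hU6 guide 1 and -1.54 for hU6 guide 2. The size contrasts that differed between these groups were guide 1 minus guide 2 at hU6 (-1.65), dual minus triple at mU6 guide 2 (-1.60) and dual Lkb1 minus dual Sik1/Sik3 (-1.95). The number contrasts were guide 1 minus guide 2 at hU6 (0.40) and dual Lkb1 minus dual Sik1/Sik3 (0.39). Between KT_Cas9 and KT mice the contrasts dual minus triple differed for size at mU6 guide 2 (1.66) and for number at mU6 guide 1 (-0.36).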

How the results depend on the processing

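The size and read counts of the 4 vectors stayed at 4 of 4 without each mouse in turn, from 4 to 4, in both comparisons with KT_Cas9 mice, and size and number of KTL_Cas9 against KT stayed at 0. DESeq2 called 4 of 4 in reads in both. In the reported runs 58.3% of all 24 vectors passed in KT_Cas9 against KT, for size by exact permutation and for reads by edgeR. In KTL_Cas9 against KT_Cas9 the shares were 41.7% for size and 37.5% for reads. Over all alternatives 297 of 341 counts of calls stayed within 1.5 times the reported count, and 3443 of 3642 single values kept their direction and their side of the threshold. Where a count under an alternative stands without the share over all 24 vectors, it is not read as a result about the 4 vectors. On the median tumour size, 0 of 4 passed in KT_Cas9 against KT and 2 in KTL_Cas9 against KT_Cas9, where the sign turned for mU6 guide 1 (0.69), mU6 guide 2 (0.19) and hU6 guide 1 (0.23). With a floor of 200 cells 0 of 4 passed in KT_Cas9 against KT, and with TMM 2 of 4 in reads. Percentiles passed 28 of 28 in that comparison with a floor of 1500 cells, at which mU6 guide 1 in KTL_Cas9 against KT_Cas9 turned to -0.38, -0.64, -1.44 and -2.66 at the 50th, 60th, 70th and 80th percentile. Without single mice the percentile counts were 0 to 12 for KT_Cas9 against KT and 17 to 18 for KTL_Cas9 against KT_Cas9.

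Number passed in 4 vectors for KT_Cas9 against KT and in 2 for KTL_Cas9 against KT_Cas9 without KT_Cas9 replicates 2 and 5. Those replicates were the only KT_Cas9 mice not below all KT mice in number, so the first of these counts adds no support. For KTL_Cas9 against KT_Cas9 the count was 1 with floors of 200 and of 5000 cells, where hU6 guide 2 turned to -0.75, and 0 to 2 without single mice. Size contrasts within KT_Cas9 mice passed 0 times on the median and with a floor of 5000 cells, 2 times with 1500 cells, 7 times with rank matching (hU6 minus mU6 of guide 1 turned to 0.59), and 4 to 5 times without single mice. Contrasts of KT_Cas9 against KT passed 1 time on the 90th percentile, the median and rank matching, 4 times with 200 cells, 0 times with 1500 and 5000 cells, and 0 to 3 times without single mice. Contrasts of KTL_Cas9 against KT_Cas9 passed 3 times on the log-normal mean, the 90th percentile and with 200 cells, 2 times on rank matching and with 5000 cells, and 5 to 7 times without single mice. On the median guide 1 minus guide 2 turned to 0.50 at mU6 and 0.62 at hU6, and hU6 minus mU6 of guide 2 to -0.58, and the first and the last of these passed (exact permutation adjusted p = 0.0195 and 0.0234). Floors of 1500 and 5000 cells leave 8 and 6 KT_Cas9 mice. Fewer mice raise the smallest possible p, as does leaving out 1 mouse, so a lost call need not mean a smaller difference. The cause of the other changes was not tested. No paired analysis between the groups was possible, since each group holds different mice. Contrasts between vectors are paired within a mouse.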
